A study of Rattus norvegicus with 10 samples.

Results

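The genes described here are 37 immediate early genes, the transcripts that cells switch on within minutes of a stimulus without first making new protein. They were taken by gene name from a table of 32623 rat genes, and all 37 were found, each with a single row. All 37 had a mean of at least 10 normalized counts over the samples and were tested, among 15597 genes that met that minimum.

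RNA sequencing had been done on the supraoptic nucleus, a paired nucleus of the hypothalamus, from male Sprague-Dawley rats. Adeno-associated virus had carried a short hairpin RNA against Opn3, which encodes the light-sensitive receptor opsin 3, into the nucleus of one side (shOpn3), and virus with a non-targeting hairpin into the other (shControl). Tissue had been punched out 2 weeks after injection, and RNA of each nucleus was extracted on its own. There were 5 samples in each group with replicate numbers 1 to 5, each rat had received both viruses, and no uninjected nucleus was analysed here. The labels do not name the promoter of the hairpins or the cells that took up the virus.

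In neurons, calcium entry and the ERK kinase cascade activate transcription factors that are already bound to DNA, mainly CREB at cyclic AMP response elements and serum response factor at serum response elements. Immediate early genes of the AP-1, EGR and NR4A families are their classical targets, and their products switch on a later set of genes. In the supraoptic nucleus, Fos is widely used to mark vasopressin and oxytocin neurons that were activated by dehydration or salt. Most of these genes also respond in glia, vascular cells and immune cells, for instance to growth factors or cytokines.

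Reads counted to genes lay between 33158341 and 39958578 per sample, and mitochondrial transcripts took 7.58% to 11.5% of them. Neither differed between groups beyond the replicate spread (exact two-sided permutation tests, p = 0.492 and 0.635). Opn3 itself had 719, 694, 841, 1007 and 261 normalized counts in shControl replicates 1 to 5 and 289.7, 193, 159, 154 and 145 in shOpn3 replicates 1 to 5 (log2 fold change -1.82 with SE 0.320, adjusted p = 0.00226 in limma). All 5 same-numbered pairs were lower in shOpn3, although shControl replicate 5 lay below shOpn3 replicate 1. The tissue's defining transcripts, Avp and Oxt, were present in every sample, with at least 3709 reads each.

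Immediate early genes were mostly higher in shOpn3. Of the 37 genes, 19 rose, 1 fell (Plk3) and 17 did not pass the threshold (limma, adjusted p under 0.05 over all genes tested). Across all 15597 genes tested, 18.8% were called, 10.4% as higher and 8.48% as lower, so the share of these genes called higher, 51.4%, lay above the share among all genes. Their median log2 fold change was 0.66, against -0.02 for all genes tested. Rises of at least 1 on the log2 scale were found for 8 of the 37 (21.6%), namely Fos, Fosb, Egr1, Egr2, Egr3, Egr4, Npas4 and Arc, against 3.81% of all genes.

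In 14 of the 37 genes the values of both groups were fully separated, 13 of them higher in shOpn3 and 1 lower. Such separation was found for 15.3% of all genes tested, 8.03% higher and 7.23% lower. All 5 same-numbered pairs differed in the same direction for 21 of the 37, 20 higher and 1 lower, against 39.4% of all genes tested (18.7% higher and 20.7% lower). With the replicate number as a block, 24 were called, 23 higher and 1 lower, at a background of 30.3% (15.1% higher and 15.2% lower). The 4 added genes were Fosl1, Junb, Nr4a1 and Maff, and all 20 calls of the unpaired fit remained.

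**Figure D1:**
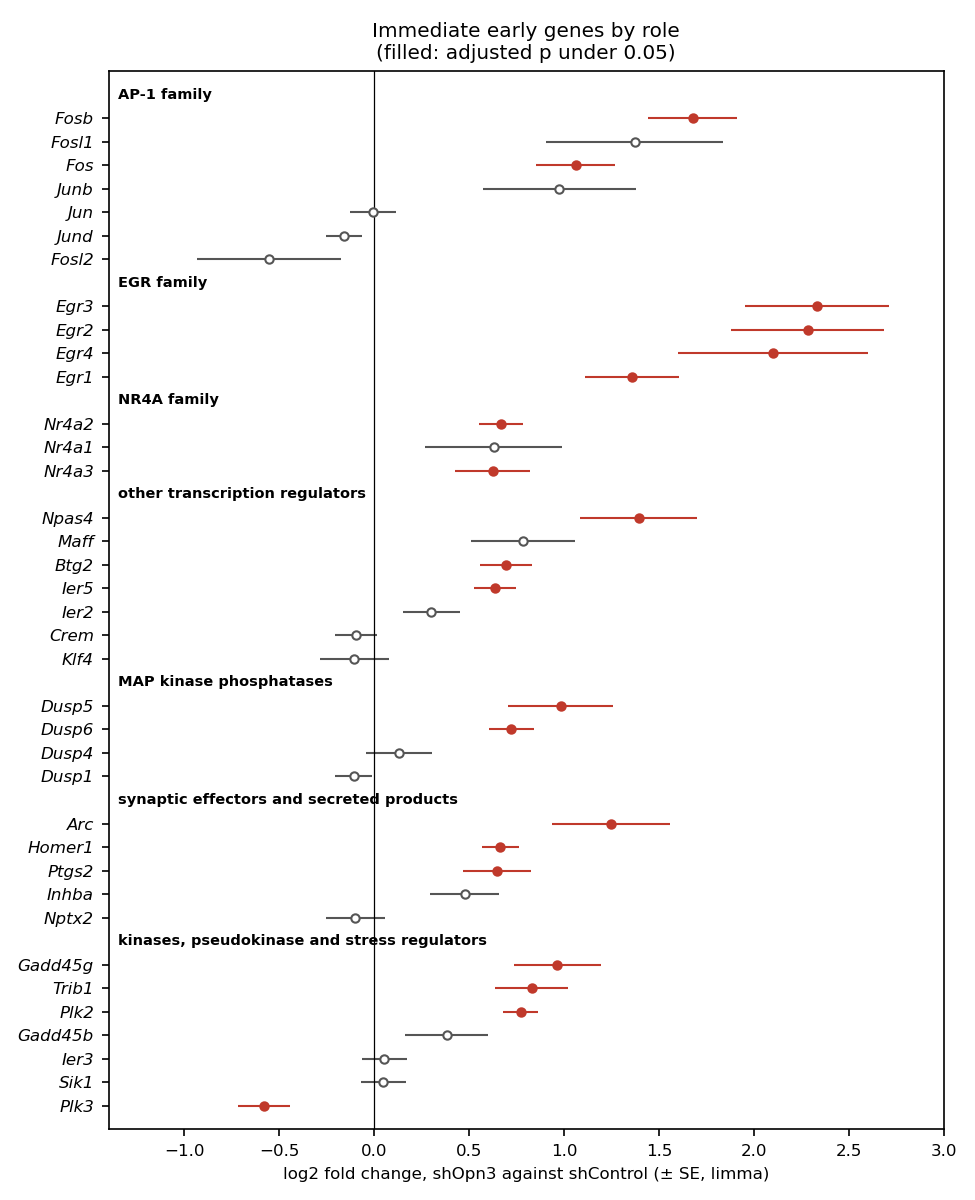
Log2 fold change, shOpn3 against shControl, on the horizontal axis for each of the 37 genes, grouped by role; points are limma estimates, bars their standard errors, and filled points had an adjusted p under 0.05. All 4 EGR genes lie at 1.36 or above, and Plk3 is the only filled point left of 0.

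AP-1 is a dimer of a Fos and a Jun protein, and its 7 genes did not move as 1 group: Fosb and Fos rose, and 5 did not pass. Fosb (ENSRNOG00000046667), whose truncated product accumulates when a stimulus is repeated, had 34.7, 19.3, 20.4, 21.5 and 33.8 normalized counts in shControl replicates 1 to 5 and 106, 60.5, 68.2, 82.1 and 107 in shOpn3. Every shOpn3 sample lay above every shControl sample. The group means were 25.9 ± 7.60 and 84.6 ± 21.1 (SD over 5 samples), and the log2 fold change was 1.68 (with SE 0.235, adjusted p = 0.000695 in limma). Within pairs, Fosb was between 2.99 and 3.69 times its control on the scale of normalized count + 1, a narrow range.

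Fos (ENSRNOG00000008015), the standard marker of recent neuronal activation, had 519.9, 230.0, 301, 272 and 405 normalized counts in shControl replicates 1 to 5 and 632, 550.2, 716, 919.6 and 690.4 in shOpn3. The groups did not overlap, but the gap between the highest control, replicate 1, and the lowest shOpn3 sample, replicate 2, was small beside the spread within each group. Fos had a log2 rise of 1.06 (with SE 0.208, adjusted p = 0.00424 in limma), with pairs between 1.22 and 3.37 times the control. In the heat map by sample, replicates 1 and 5 stand highest among the controls for Fos as for many other genes of the set.

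The other AP-1 genes spread in both directions. Fosl1, a Fos relative induced later than Fos, had 7.12 to 25.3 normalized counts in shControl and 15.4 to 86.0 in shOpn3 (log2 fold change 1.37 with SE 0.467, adjusted p = 0.0599 in limma). It was higher in 4 of 5 pairs and lower in replicate 1. Junb had 142, 32.6, 33.7, 37.5 and 98.1 in shControl and 158, 75.4, 91.6, 126 and 129 in shOpn3 (log2 fold change 0.98, limma adjusted p = 0.115). Its controls 1 and 5 lay inside the range of the shOpn3 samples, while all 5 pairs were higher, and with the replicate block the adjusted p was 0.0287 for Fosl1 and 0.0170 for Junb (limma). Jun, with 1052 to 1674 in shControl and 1177 to 1432 in shOpn3, had a log2 fold change of -0.01 (SE 0.121), whose sign differed between alternative fits. Fosl2 and Jund, a Jun gene with high basal expression, had log2 fold changes of -0.55 and -0.16 (limma adjusted p = 0.348 and 0.278).

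Ratios of 2 genes within a sample were taken as differences of log2(normalized count + 1). All 37 gene pairs within the AP-1, EGR, NR4A, MAP kinase phosphatase and polo-like kinase families were compared between groups by exact two-sided permutation tests, adjusted over the 37 pairs, a comparison that was added after the values were known. In 13 of them the groups of ratios did not overlap (adjusted p = 0.0226, the smallest that 252 splits gave). No share over other gene pairs was computed to set beside this count, and the replicate pairing was not used. A ratio of a called gene to one that did not pass is not independent of that call. Fos over Jun moved by 1.07 on the log2 scale, from -1.94 ± 0.260 to -0.87 ± 0.208 (SD, n = 5 each). Fosb over Junb moved by 0.70 and Fos over Fosb by -0.62, so that within this family Fosb rose more than Fos, and both rose relative to Jun and Jund. Fos over Junb moved by 0.08 (permutation p = 0.770, adjusted p = 0.863).

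**Figure D2:**
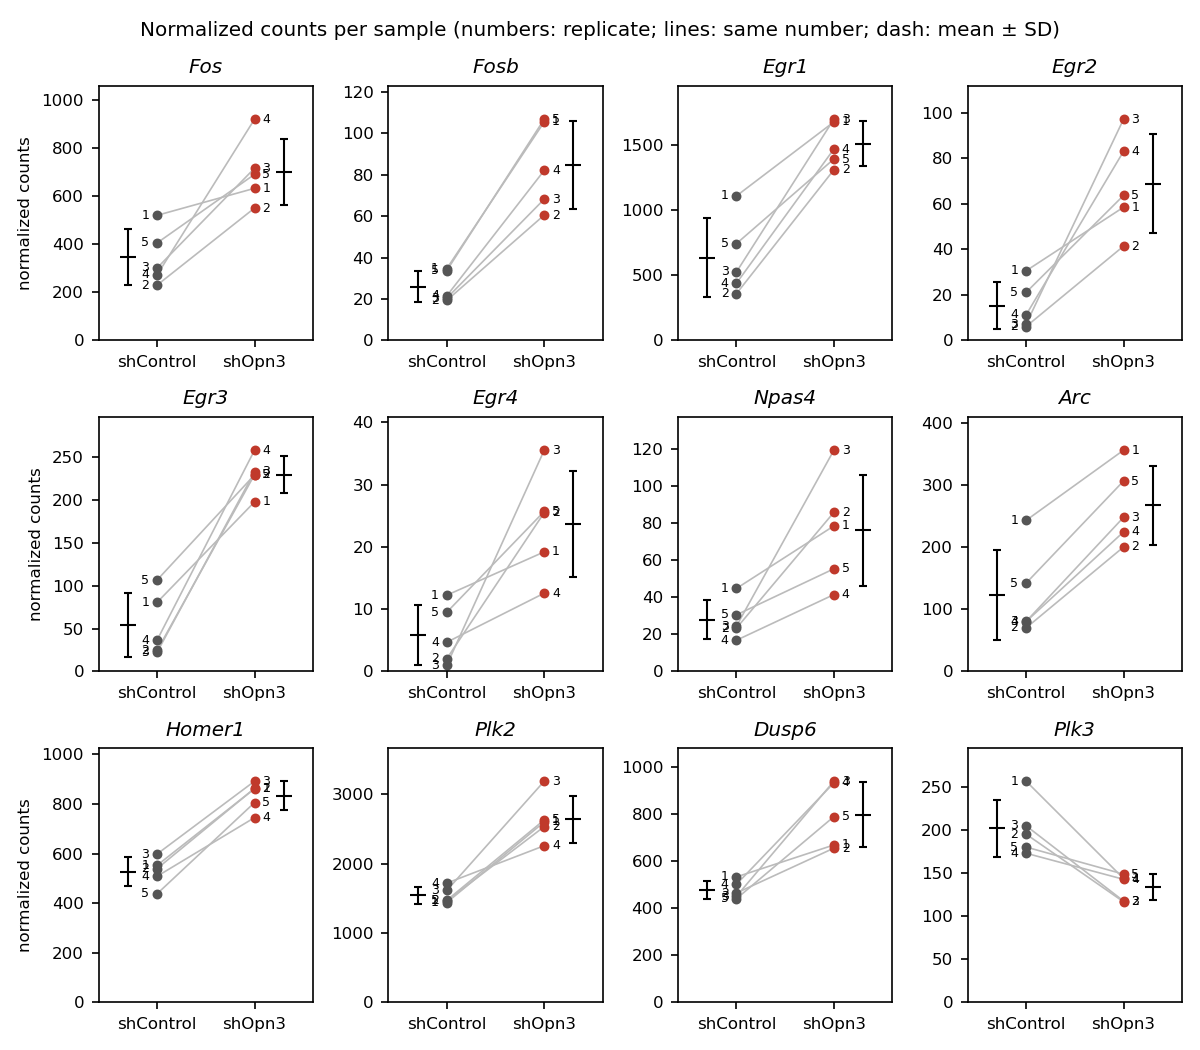
Normalized counts (vertical axis, from 0) in each sample for 12 genes, shControl on the left and shOpn3 on the right of each panel; numbers are replicates, grey lines join equal numbers, and dashes with bars are mean ± SD. In Egr1, Egr2 and Egr4 shControl replicates 1 and 5 are the highest controls, and Plk3 is lower in shOpn3 in 5 of 5 pairs.

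The EGR genes encode zinc finger transcription factors, and all 4 rose. Egr3 (ENSRNOG00000017828) had 80.5, 24.4, 22.5, 36.5 and 107 normalized counts in shControl replicates 1 to 5 and 198, 229, 233, 258 and 229 in shOpn3. The shOpn3 samples lay close together, the controls spread widely, and the groups did not overlap. The log2 fold change was 2.33 (with SE 0.378, adjusted p = 0.00142 in limma), the highest of the 37 genes.

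Egr2 (ENSRNOG00000000640) had 30.6, 6.11, 7.14, 11.2 and 21.1 in shControl and 58.5, 41.4, 97.2, 83.1 and 63.7 in shOpn3 (log2 fold change 2.28 with SE 0.404, adjusted p = 0.00234 in limma). Egr1 (ENSRNOG00000019422), which is read at a substantial basal level in brain, had 1107, 358, 525, 438 and 742 in shControl and 1674, 1307, 1695, 1466 and 1390.0 in shOpn3 (log2 fold change 1.36 with SE 0.248, adjusted p = 0.00278 in limma). Both were without overlap between groups. Egr4 (ENSRNOG00000015719) had few reads, with 12.2, 2.04, 1.02, 4.68 and 9.49 in shControl and 19.2, 25.5, 35.5, 12.6 and 25.7 in shOpn3. Its log2 fold change of 2.10 (with SE 0.502, adjusted p = 0.0119 in limma) rests on as little as 1 read in a control sample, and the lowest shOpn3 sample lay just above the highest control.

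Within the family, Egr1 over Egr2 changed by -0.92 on the log2 scale with no overlap between groups (adjusted p = 0.0226, exact permutation). Egr1 over Egr3 changed by -0.97 (unpaired permutation p = 0.0238, adjusted p = 0.0629), which did not pass, although the ratio was lower in 5 of 5 pairs. Egr2, Egr3 and Egr4 had ratios to each other that moved by 0.23 or less (permutation p from 0.532 to 0.833).

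The upstream sequences of 29 of the 37 genes were found by symbol in RefSeq promoter windows of the rat assembly GRCr8, which run from 250 bases before to 50 bases after a transcription start. Windows of Fos, Jun, Egr3, Nr4a3, Dusp4, Arc, Trib1 and Ier3 were not analysed here. The sequences are shown because they hold the elements through which CREB and serum response factor are known to act on this gene class. A gene was counted if any of its windows held an element, whereas the background is the share of single windows. Genes with several windows, such as Crem, are counted more readily, so the shares are not like for like. The serum response element, also called the CArG box, was found in Egr1, Egr2 and Dusp5, which is 3 of 29 genes (10.3%), against 1.64% of all 33469 windows. The full cyclic AMP response element TGACGTCA was found in Jund, Maff, Crem, Ier2, Btg2, Dusp1 and Plk2, which is 7 of 29 genes (24.1%), against 1.83% of all windows. Its shorter form TGACG, searched on both strands and contained in the full element, was found in 19 of 29 genes and in 21.2% of all windows. The AP-1 site TGANTCA was in 0 of the 29 and in 7.33% of all windows, and the EGR site GCGNGGGCG, on either strand, in 8 of 29 and in 4.98%.

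The stretches below, each 100 bases before the start and 5′ to 3′ on the gene's strand, carry the 2 elements in capitals. All 3 genes with a serum response element in the window rose, and the call of Dusp5 was lost in 8 of 24 alternative fits. For comparison, 51.4% of the 37 genes and 10.4% of all genes tested were called higher. No difference between the 2 elements was tested. Of the 7 with the full cyclic AMP response element, Btg2 and Plk2 rose and Jund, Maff, Crem, Ier2 and Dusp1 did not pass in the unpaired fit.
Egr2, chr20:21054465-21054564, minus strand, serum response element: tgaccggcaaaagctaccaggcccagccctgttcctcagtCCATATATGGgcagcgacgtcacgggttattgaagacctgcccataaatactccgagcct
Dusp5, chr1:262543652-262543751, plus strand, a pair of adjoining serum response elements: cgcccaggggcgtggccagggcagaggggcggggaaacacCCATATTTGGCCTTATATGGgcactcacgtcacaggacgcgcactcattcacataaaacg
Plk2, chr2:43702430-43702529, plus strand, cyclic AMP response element: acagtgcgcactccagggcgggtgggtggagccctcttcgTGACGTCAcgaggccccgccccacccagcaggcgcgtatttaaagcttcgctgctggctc
Btg2, chr13:48087832-48087931, minus strand, cyclic AMP response element: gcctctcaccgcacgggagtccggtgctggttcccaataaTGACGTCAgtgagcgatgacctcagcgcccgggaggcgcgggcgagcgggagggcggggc
Maff, chr7:112792687-112792786, plus strand, cyclic AMP response element: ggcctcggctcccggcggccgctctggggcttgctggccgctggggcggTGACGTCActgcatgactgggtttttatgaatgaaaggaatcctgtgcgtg
Dusp1, chr10:17184689-17184788, plus strand, cyclic AMP response element: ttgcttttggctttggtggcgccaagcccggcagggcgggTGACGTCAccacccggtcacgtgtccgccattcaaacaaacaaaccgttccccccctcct

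Of the NR4A genes, which encode orphan nuclear receptors, Nr4a2 and Nr4a3 rose, and Nr4a1 passed in limma with the replicate block but not without it. Nr4a2 (ENSRNOG00000005600) had 154, 168, 213, 202 and 203 normalized counts in shControl replicates 1 to 5 and 311, 316, 281, 302 and 274 in shOpn3. The groups did not overlap, and the log2 fold change was 0.67 (with SE 0.116, adjusted p = 0.00216 in limma). Nr4a3 (ENSRNOG00000005964) had 139.7, 93.6, 94.9, 165 and 169 in shControl and 214, 173, 159.8, 213 and 242 in shOpn3. The shOpn3 replicate 3 lay below shControl replicates 4 and 5, and its call (log2 fold change 0.62 with SE 0.198, adjusted p = 0.0448 in limma) was lost in 10 of 25 alternative fits.

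Nr4a1 had 368, 92.6, 99.0, 171 and 236 in shControl and 348, 158, 218, 322 and 317 in shOpn3. Here shControl replicate 1 was the highest of all 10 samples. The log2 fold change of 0.63 matched that of its relatives in size, but its standard error of 0.360 was larger (limma adjusted p = 0.257). With the block it was called (adjusted p = 0.0244), being higher in 4 of 5 pairs. Ratios among the 3 NR4A genes moved by 0.04 or less between groups (permutation p from 0.905 to 1).

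Among the remaining transcription regulators, Npas4, Ier5 and Btg2 rose. Npas4 (ENSRNOG00000020009), which is induced by calcium entry in neurons and little by other stimuli, had 44.9, 23.4, 24.5, 16.9 and 30.6 normalized counts in shControl replicates 1 to 5 and 78.7, 86.0, 119.6, 41.5 and 55.5 in shOpn3. Only shControl replicate 1 lay above the lowest shOpn3 sample, replicate 4, and 5 of 5 pairs were higher. The log2 fold change was 1.39 (with SE 0.309, adjusted p = 0.00810 in limma). Ier5 (ENSRNOG00000059406) had 588, 558, 469, 572 and 730.0 in shControl and 818, 872, 971, 965 and 871 in shOpn3 (log2 fold change 0.63 with SE 0.111, adjusted p = 0.00218 in limma).

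Btg2 (ENSRNOG00000003300), an antiproliferative gene and a known p53 target, had 427, 369, 378, 358 and 437 in shControl and 571, 549, 687, 878 and 548 in shOpn3. Its log2 fold change was 0.69 (with SE 0.135, adjusted p = 0.00409 in limma), and neither Ier5 nor Btg2 overlapped between groups. Maff, a small Maf protein, was higher in 5 of 5 pairs, with 50.9 to 107 in shControl and 74.8 to 195 in shOpn3, and in limma passed with the block but not without it (adjusted p = 0.0387 and 0.0688). Ier2, Klf4 and Crem, the latter a source of CREB-family activators and repressors, had log2 fold changes of 0.30, -0.10 and -0.10 (limma adjusted p = 0.192, 0.740 and 0.589). The sign of Klf4 differed between alternative fits.

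The MAP kinase phosphatases switch off the kinases that induce this gene class. Dusp6 and Dusp5, which act on ERK, rose, and Dusp1 and Dusp4 did not pass. Dusp6 (ENSRNOG00000023896) had 532, 464, 450.0, 501 and 439.9 normalized counts in shControl replicates 1 to 5 and 668, 654, 938, 931 and 788 in shOpn3, without overlap (log2 fold change 0.72 with SE 0.120, adjusted p = 0.00162 in limma). Dusp5 (ENSRNOG00000014061) had 56.1, 33.6, 28.6, 17.8 and 30.6 in shControl and 53.7, 55.2, 83.2, 79.2 and 49.3 in shOpn3 (log2 fold change 0.98 with SE 0.276, adjusted p = 0.0262 in limma). Its shControl replicate 1 lay above 3 of the shOpn3 samples, and its call was lost in 8 of 24 alternative fits.

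Dusp1, which acts mainly on p38 and JNK, had 461 to 565 in shControl and 431 to 527 in shOpn3 (log2 fold change -0.11 with SE 0.0960, adjusted p = 0.477 in limma). Dusp4 had 347 to 633 and 432 to 659.5 (log2 fold change 0.13, SE 0.175, adjusted p = 0.656), and its sign differed between fits. The ratio of Dusp1 to Dusp6 fell by 0.83 on the log2 scale and that of Dusp1 to Dusp5 changed by -1.09, both with no overlap between groups (adjusted p = 0.0226 each, exact permutation). Dusp5 over Dusp6 moved by 0.26 (permutation p = 0.397).

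Of the 5 synaptic effectors and secreted products, Arc, Homer1 and Ptgs2 rose. Arc (ENSRNOG00000043465), which promotes removal of AMPA receptors from synapses, had 244, 70.2, 80.6, 80.5 and 142 normalized counts in shControl replicates 1 to 5 and 357, 201, 249, 225 and 307 in shOpn3. The order of the replicates was similar on both sides, with 1 highest, 5 next and 2 lowest. The groups overlapped through shControl replicate 1, while 5 of 5 pairs were higher, at 1.46 to 3.06 times the control. The log2 fold change was 1.25, with an SE of 0.311 and an adjusted p of 0.0149 without the block and 0.162 and 0.00127 with it (limma).

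Homer1 (ENSRNOG00000047014), whose short activity-induced form loosens the glutamate receptor scaffold, had 553, 539, 598, 508 and 438 in shControl and 862, 862, 892, 745 and 805 in shOpn3. The spread was small in both groups, without overlap (log2 fold change 0.66 with SE 0.0967, adjusted p = 0.000814 in limma). The table holds 1 row per gene, so the short and long forms cannot be told apart. Ptgs2 (ENSRNOG00000002525), the inducible cyclooxygenase, had 296, 393, 426, 321 and 272 in shControl and 408, 735, 557, 590.2 and 416 in shOpn3 (log2 fold change 0.65 with SE 0.178, adjusted p = 0.0240 in limma), with shControl replicate 3 above 2 of the shOpn3 samples and a call that was lost in 6 of 25 alternative fits. Inhba, the activin subunit, was higher in 5 of 5 pairs, with 30.6 to 51.0 in shControl and 45.1 to 66.4 in shOpn3, and did not pass (limma adjusted p = 0.0948, and 0.0568 with the block). Nptx2, a secreted pentraxin that clusters AMPA receptors, had a log2 fold change of -0.10 (SE 0.155, adjusted p = 0.702).

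The last group holds kinases, a pseudokinase and stress regulators. Plk2 (ENSRNOG00000011951), a polo-like kinase of synaptic scaling, had 1439, 1463, 1613, 1719 and 1472 normalized counts in shControl replicates 1 to 5 and 2601, 2534, 3189, 2258 and 2630.0 in shOpn3. The groups did not overlap. It rose by 0.77 (SE 0.0936) and had the smallest adjusted p of the 37 genes (limma, 0.000373). Its relative Plk3 (ENSRNOG00000018484), a kinase of the stress response, had 257, 195, 205, 173 and 180.4 in shControl and 144, 117, 118, 143 and 149 in shOpn3. The log2 fold change of Plk3 was -0.58 (with SE 0.137, adjusted p = 0.0111 in limma), lower in 5 of 5 pairs and without overlap. The ratio of Plk2 to Plk3 rose by 1.35 on the log2 scale (adjusted p = 0.0226, exact permutation). Its groups could not overlap, since Plk2 was fully separated upward and Plk3 downward, so the test adds nothing to these values.

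Trib1 (ENSRNOG00000004100), a pseudokinase that directs protein degradation, had 93.8, 70.2, 72.5, 68.3 and 59.1 in shControl and 92.1, 107, 145, 177 and 139.7 in shOpn3 (log2 fold change 0.83 with SE 0.192, adjusted p = 0.0100 in limma). The replicate 1 samples were nearly equal, and the other pairs were higher. Gadd45g (ENSRNOG00000013090), a stress sensor of the GADD45 family, had 107, 65.1, 65.3, 44.9 and 103 in shControl and 127, 157, 132, 179 and 133 in shOpn3, without overlap (log2 fold change 0.96 with SE 0.228, adjusted p = 0.0113 in limma). Gadd45b, Ier3 and Sik1 had log2 fold changes of 0.38, 0.05 and 0.05 (limma adjusted p = 0.264, 0.803 and 0.821).

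**Figure D3:**
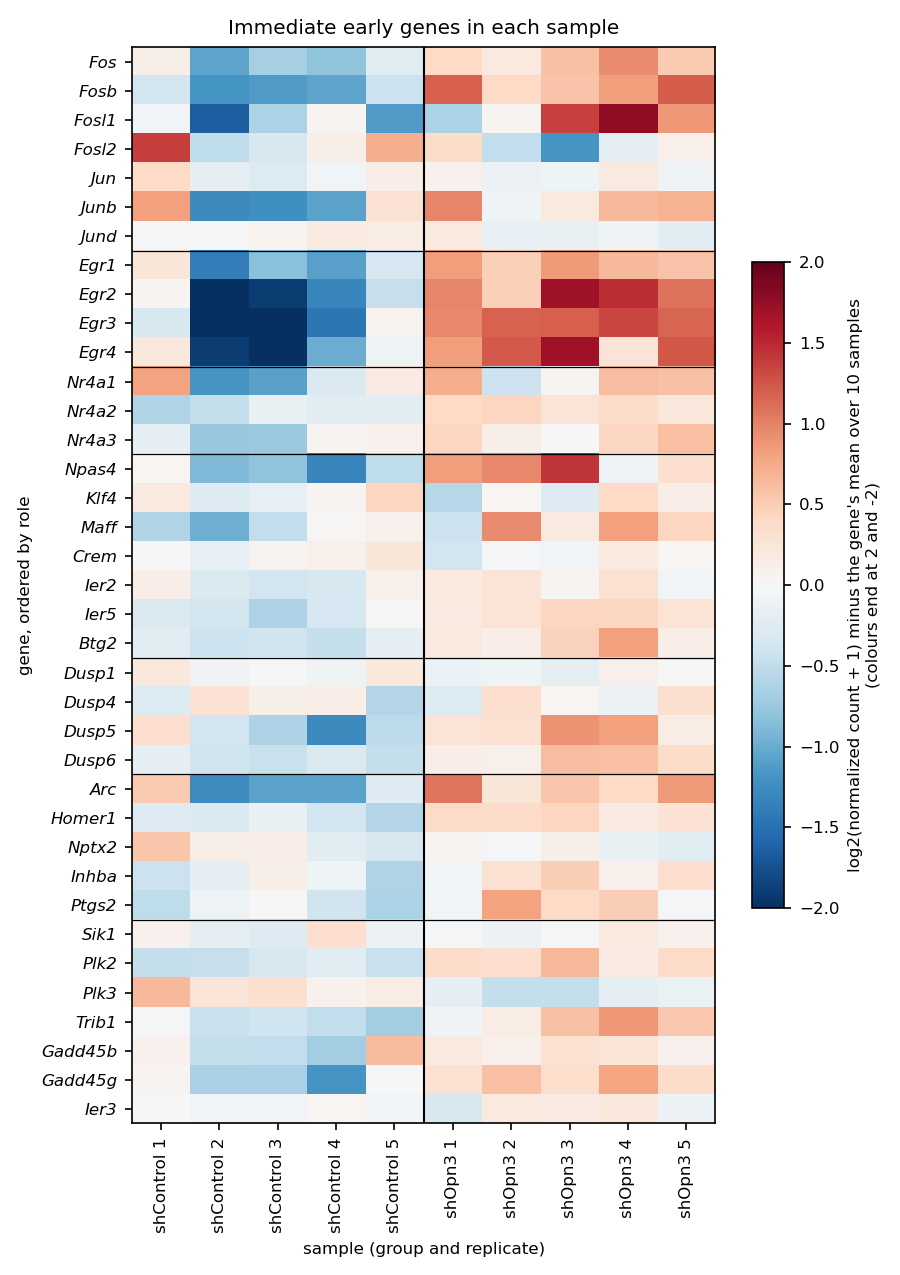
Colour shows log2(normalized count + 1) minus the gene's mean over the 10 samples, with genes (vertical, ordered by role) against samples (horizontal); colours end at 2 and -2. The EGR rows and Arc are lowest in shControl replicates 2, 3 and 4, and in the EGR rows shControl replicates 1 and 5 lie between those and the shOpn3 samples.

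The control samples were not alike. In 19 of the 37 genes (51.4%) shControl replicates 1 and 5 both lay above replicates 2, 3 and 4, among them Fos, Fosb, Junb, all 4 EGR genes, Nr4a1, Npas4 and Arc. This order held for 32.6% of all genes tested, and it was picked out after the values were seen. Replicate 1 was the highest control in 19 of the 37 genes, and its median deviation from the other controls was 0.36 on the log2 scale, against 0.00 for all genes. Size factors hold the median over all genes near 0 in every sample (-0.00952 to 0.0177), so that contrast says little. Controls 1 and 5 also had the lowest mitochondrial shares of the controls, 7.58% and 8.33% against 9.46% to 11.5%. The cause of this order was not tested. In shOpn3, replicates 4 and 3 were most often the highest, in 13 and 12 genes.

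The size of the difference also varied by pair. Pair 1 had the smallest difference (shOpn3 minus shControl) of the 5 pairs in 23 of 37 genes (62.2%), against 25.8% of all genes tested. The median difference over the 37 genes was 0.22 on the log2 scale in pair 1, 0.68 in pair 2, 0.79 in pair 3, 0.80 in pair 4 and 0.44 in pair 5. Pairs 5 and 1 also had the smallest falls of Opn3, at -0.84 and -1.31, against -1.84, -2.40 and -2.70 in pairs 2 to 4. In pair 5 the control was low, with 261 normalized counts of Opn3 against 694 to 1007 in the other controls. The shOpn3 sample of that pair had 145, the lowest of the 10 samples, so its small fall does not mark a higher remaining Opn3 level. With 5 pairs no correlation was computed.

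**Figure D4:**
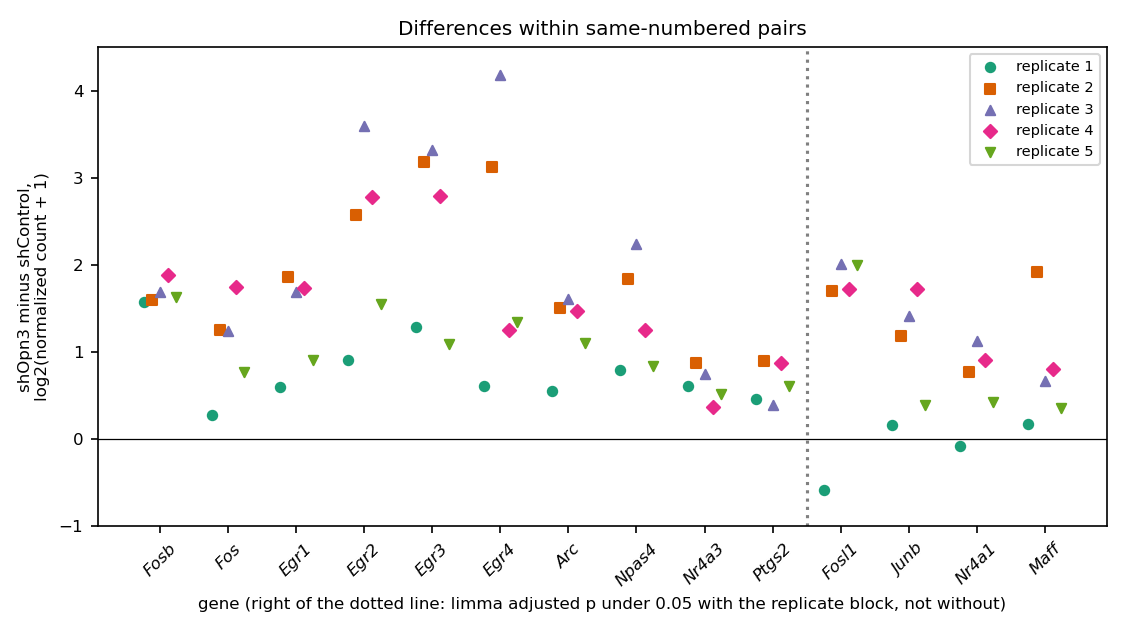
Difference of log2(normalized count + 1), shOpn3 minus shControl, within each same-numbered pair (symbols) for 14 genes; those right of the dotted line were called in limma with the replicate block and not without it. Replicate 1 gives the smallest difference in Fos, Egr1, Egr2, Egr4, Arc, Npas4 and all 4 genes on the right, whereas the 5 pairs of Fosb lie close together.

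Other genes of the pathway were read from 3 further lists. Of 30 other rapid-response genes tested, 8 rose, 2 fell and 20 did not pass, where 10.4% of all genes were called higher and 8.48% lower. The median log2 fold change of the list was 0.10. Atf3, a transcription factor of the stress response, rose from a mean of 49.5 ± 7.36 to one of 343 ± 78.3 (SD over 5 samples, in normalized counts; log2 fold change 2.75 with SE 0.174, adjusted p = 1.29e-05 in limma). Bhlhe40 rose by 0.59 (SE 0.0682) and Klf6 by 0.50 (SE 0.0733), with limma adjusted p of 0.000306 and 0.000811. The other rises were those of Cebpd, Zfp36, Zfp36l1, Nfkbia and Klf10. The 2 falls were those of Pcsk1, which processes prohormones, and Rasd1, a Ras-related protein, at -0.997 and -0.82 (SE 0.280 and 0.153; limma adjusted p = 0.0265 and 0.00303), named here after their values were seen. Bdnf, Vgf and Scg2, also named after their values were seen, which follow neuronal activity in many settings, had log2 fold changes of -0.23, -0.10 and 0.07, with limma adjusted p from 0.497 to 0.840.

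Genes of the ERK cascade, its feedback inhibitors and the partners of serum response factor formed a list of 24 tested genes, of which 2 rose, Elk3 among them (log2 fold change 0.43, limma adjusted p = 0.0448), 22 did not pass, and the median was 0.03. The 2 of 24 stand against 18.8% called among all genes. With the replicate block 3 rose and 5 fell, near the 15.1% and 15.2% of all genes called higher and lower in that fit. Srf, which encodes serum response factor, had a log2 fold change of -0.01 and Creb1 one of 0.08. Of 26 rows for calcium signalling to CREB and MEF2, 6 rose and 20 did not pass, beside 10.4% of all genes called higher. Mef2c rose from 2019 ± 259.8 to 4999 ± 573 in shOpn3 (SD over 5 samples; log2 fold change 1.31 with SE 0.103, adjusted p = 4.84e-05 in limma). Mef2a and Ppp3ca, a calcineurin subunit, rose by 0.45 and 0.63 (SE 0.0599 and 0.0953), and the others were Camk2d, Camkk2 and Ppp3r1.

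**Figure D5:**
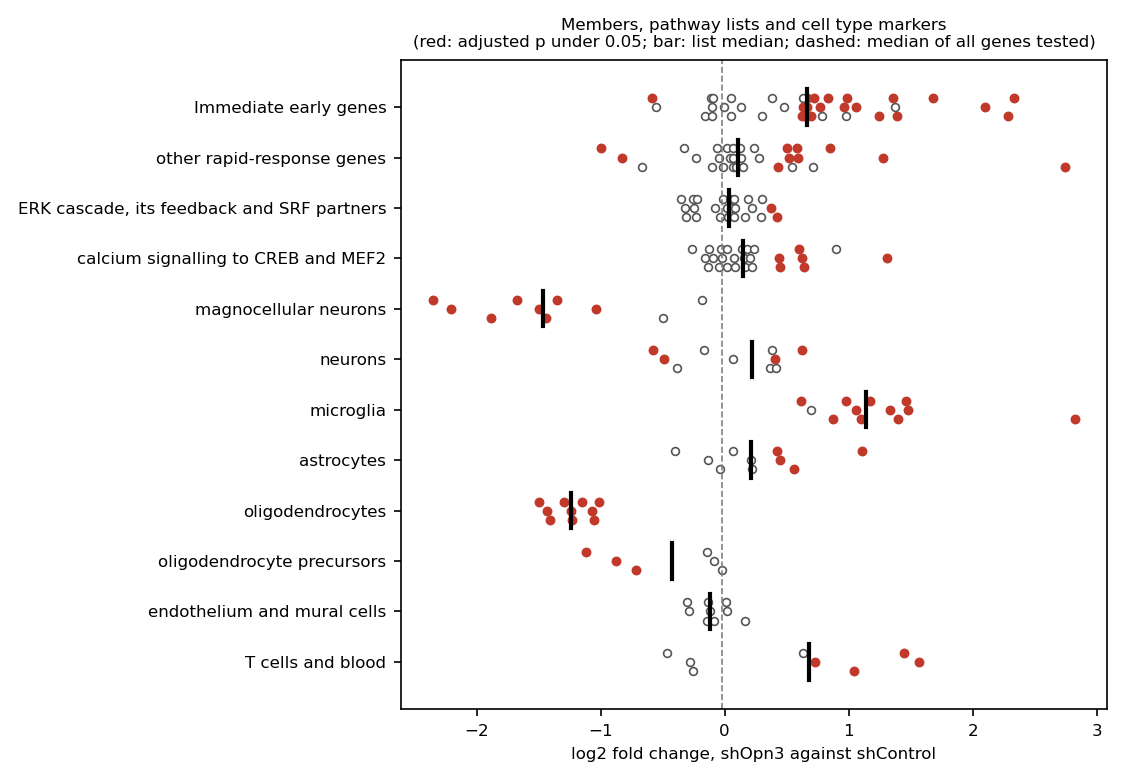
Log2 fold change, shOpn3 against shControl (horizontal), of each tested gene of the immediate early genes, the 3 pathway lists and 8 marker lists; red points had an adjusted p under 0.05, black bars are list medians, and the dashed line is the median of all genes tested. Immediate early genes have a median of 0.66, microglial markers of 1.14 and oligodendrocyte markers of -1.24.

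Markers of several cell types moved with the same groups. The counts below stand beside 10.4% of all genes tested called higher and 8.48% called lower. In bulk tissue, fewer cells of a type and less RNA per cell cannot be told apart. Of 12 microglial markers 11 rose, and their summed level was 16445 to 20271 normalized counts in shControl and 27057 to 52820 in shOpn3. Of 10 oligodendrocyte markers 10 fell, with sums of 748448 to 1274900 and 255911 to 482833. Of 10 magnocellular markers 8 fell, with sums of 67751 to 188748 and 14400 to 42696. Of 10 astrocyte markers 4 rose (284187 to 384638 and 335485 to 479730).

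General neuronal markers were mixed, with 2 of 10 higher and 2 lower (145338 to 205077 and 144014 to 244492). Of 8 markers of T cells and blood 4 rose, namely Cd3e, Cd8a, Ptprc and Lyz2 (35838 to 90566 and 49894 to 82004). These sums came mostly from the haemoglobin genes Hbb and Hba-a1, which did not pass (Hbb means 48533 in shControl and 39053 in shOpn3). Of 6 markers of oligodendrocyte precursors 3 fell, namely Olig1, Olig2 and Sox10 (12636 to 18350 and 10737 to 14764 for all 6). Pdgfra, Cspg4 and Gpr17 did not pass, with log2 fold changes of -0.02, -0.14 and -0.09 (limma adjusted p = 0.892, 0.607 and 0.827). Of 9 markers of endothelium and mural cells 0 passed with limma, edgeR or DESeq2, 0 had an unadjusted limma p under 0.05, and 1 passed with the block (21842 to 24799 and 18645 to 27133). No marker was at 0 in all samples. The part of these cell types in the rise of the immediate early genes was not tested.

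The authors' deposited table, an unpaired DESeq2 comparison, gave an adjusted p under 0.05 to 22 of these genes, 21 as higher and Plk3 as lower. Recomputed with DESeq2, the background was 21.3% of all genes, 11.4% higher and 9.89% lower. The 22 were the 20 genes above with Fosl1 and Maff, and their deposited log2 fold changes ranged from -0.59 for Plk3 to 2.18 for Egr2. With edgeR 20 were called, with Fosl1 in and Nr4a3 out (background 19.4%, 10.4% higher and 9.04% lower), and with limma-voom and sample weights 26 (background 32.6%, 15.7% higher and 17% lower). Across 25 alternative fits the number of called genes lay between 17 and 26. Fos, Fosb, Egr1, Egr3, Nr4a2, Npas4, Ier5, Btg2, Dusp6, Arc, Homer1, Plk2 and Plk3 were called in all 25, and Egr2 in all 24 that tested it.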

How the data were processed

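RNA from 10 punches of the supraoptic nucleus (5 shControl, 5 shOpn3) was sequenced, and 1 table was deposited. The submitters' processing notes name FastQC, STAR, featureCounts and DESeq2, while versions, genome build and strand setting are not given in the sources used here. Per the file headers and values, the deposited signal is the read count divided by 1 size factor per sample. Whole reads were recovered for 100% of positive values in each sample (tolerance 0.001). Per the file headers, the authors also deposited, per gene, a log2 fold change, its standard error, the Wald score and the p-value before and after adjustment.

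Genes averaging at least 10 were kept, 1 was added before taking log2, and groups were compared with limma 3.58.1 in R 4.3.3 (eBayes with a trend), two-sided, with Benjamini-Hochberg adjustment and a threshold of 0.05. For genes with few reads, fold changes on this scale depend on the added 1. Fold changes here lay below or above the deposited ones (Fosl1 1.37 against 1.53, Egr4 2.10 against 2.01). Genes with more reads differed as well (Egr3 2.33 against 2.09, Arc 1.25 against 1.12), and the share due to the added 1 was not tested. The fits were tested on simulated data with known changes. These counts were independent between samples, with no effect of the replicate number. They could not show how the fits handle paired samples or unlike controls. Single values used exact permutation tests over 252 splits, whose smallest p is 0.00794. Labels do not state that equal numbers mark the same rat, but each rat received both hairpins, and deviations of same-numbered samples correlated in all 5 pairs (r from 0.12 to 0.44, against -0.45 to 0.36 with a median of -0.21 for other combinations; shControl and shOpn3 replicates 4 correlated more with another number than with their own). The deviations were taken from each group's own mean and sum to 0. Positive values for equal numbers therefore push those of other combinations below 0, and their median is not separate evidence. Equal numbers were treated as pairs on the basis of the design and these correlations. Since each rat received 1 hairpin per side, the nuclei of a group would come from different rats. No label numbers the rats, so p-values measure only the spread between these samples, which may be technical.

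The 37 genes, the other gene lists and the tests were chosen with earlier results of these data known. Values in every sample are given for Fos, Npas4 and Arc and for up to 4 called genes per role group with the smallest p, and up to 3 called genes are named per pathway list, where 1 gene that the rule would name is not reported here. Mcl1, Mrtfb, Calm3 and Pecam1 were not analysed here, Cebpb and Zfp36l2 lay under the minimum mean, and Calm2 stood beside 2 identifiers. All 37 symbols were found in the RefSeq gene table of GRCr8, where 7 genes (Fosb, Nr4a3, Klf4, Crem, Dusp5, Arc and Plk3) overlap another gene, so their reads are uncertain without strand. Alternatives were other pseudocounts, filters and normalizations, edgeR 4.0.16, DESeq2 1.42.0, limma-voom with sample weights, the replicate block, and leaving out samples or pairs.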

Additional observations from a re-analysis of the deposited data

Results flagged for a closer look

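The 82 sets of 5 values examined were both groups of the 37 genes, Opn3, Avp, Oxt and reads counted to genes. In each, the highest and the lowest value were compared with their neighbours by Dixon's ratio. It exceeded its 95% limit in 2 sets, where chance at 1 in 20 would give 4.1, and both times the sample had replicate number 1. For Jund this was shOpn3 replicate 1, whose 637 normalized counts stood above a second-highest value of 521. For Oxt it was shControl replicate 1, with 56716 above a second-highest 21354.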

How the results depend on the processing

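The count of called immediate early genes stayed within 1.5 times 20 in all 25 alternative fits. Leaving out single samples gave 17 to 21, and leaving out pairs with the replicate block 17 to 25. Of 497 values that the 20 called genes took in these fits, 468 kept the call and 29 lost it with the same direction, in Nr4a3 (10), Dusp5 (8), Ptgs2 (6), Trib1 (2), Gadd45g (2) and Egr4 (1). A minimum mean of 50 left Dusp5, Egr2 and Egr4 untested. Opn3 kept its call in all 25. The count of genes with all pairs in the same direction was 21 to 26 when pairs were left out. It could not fall below 21, since every such gene stays so when a pair is dropped, and no share of all genes is given for it.

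Genes near 0 that were not called changed sign in some fits, never with a call. Jun had a log2 fold change of 0.00892 with quantile normalization, 0.0830 with limma-voom and sample weights, -0.0765 to 0.0909 without single samples, and 0.0699 and 0.0417 without pairs 1 and 5 (with the replicate block). Klf4 had 0.0512 with limma-voom, -0.215 to 0.0259 without single samples and 0.0614 without pair 1. Dusp4 had -0.0459 with limma-voom and -0.0645 without pair 5. Nptx2 ranged from -0.194 to 0.0270 without single samples and had 0.000635 without pair 1. Sik1 ranged from -0.00807 to 0.137 without single samples, and Ier3 had -0.00509 with quantile normalization. With the replicate block in limma, the calls of Fosl1, Junb, Nr4a1 and Maff were added and no other of the 37 changed. With the block in edgeR, Fosl2 was called too, as lower.

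The count over all genes, 2940, rose to 4726 with the replicate block in limma, 4777 with it in edgeR and 5085 with limma-voom and sample weights. It ranged from 1987 to 3056 without single samples and from 2931 to 4566 without pairs (with the replicate block). Of the ERK cascade list, 2 genes were called, against 1 without the filter on low values, 7 with limma-voom, 8 with the block in limma or edgeR, 1 to 5 without single samples and 3 to 10 without pairs (4 without pair 5). Of the calcium list, 6 were called, against 11 with limma-voom and at most 11 without pairs. The cause of these shifts was not tested. Genes with few reads, such as Egr4 and Fosl1, limit the precision of their folds.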
